A study of Mus musculus with 1024 samples.

Results

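The contractile genes of smooth muscle were followed across single cells of the mouse aorta. The set holds 10 genes of 24422 in the count table, chosen by name as genes of the smooth muscle contractile apparatus and its anchoring: Acta2, Myh11, Tagln, Cnn1, Myl9, Smtn, Lmod1, Tpm2, Des and Flna. The choice was made with earlier results of these data known, so their share called is not independent of the data. Their rows were read across genotype, gate and cell type in wells that passed a depth filter of 20000 gene counts and 500 genes. All 10 passed the filter on low counts that preceded the tests.

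Smooth muscle contracts when myosin II pulls on filaments of smooth muscle actin. The force depends on phosphorylation of the myosin regulatory light chain, and calponin, tropomyosin and caldesmon lie along the thin filament. In the wall of the aorta the medial smooth muscle cells carry this apparatus, and its genes are commonly driven by serum response factor with its coactivator myocardin, which bind through a DNA element called the CArG box. Acta2 and Tagln are also known to be made by some cells outside smooth muscle, such as activated fibroblasts, while Myh11 is held to be the most restricted of these genes.

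WT and KO mice were compared at 3 months of age. The labels give the same strain to all wells, spelled Amotl2flow/flow / Cdh5-RREert /ROSA26-EYFP, and per the study's methods the KO carries a deletion of amotl2 made by a tamoxifen-inducible Cre under the Cdh5 promoter, thus in endothelial cells, with ROSA26-EYFP as the reporter of recombination. Whether the WT mice also carried Cre was not given in the sources used here. Cells were sorted as Endothelial (Cd31+Cd45-) or DoubleNegative (Cd31-Cd45-), 1 cell per well, and sequenced with Smart-seq2, in which full-length cDNA is amplified by PCR and molecules carry no identifier, so counts are reads. There were 2 preparations per genotype of pooled mice that the labels do not name, so the sum of counts per genotype, gate and preparation was the replicate (8 sums, 2 per group). In preparation 1 WT and KO were sorted into different plates, and there plate and genotype cannot be told apart.

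Of 1024 wells, 784 were kept. The DoubleNegative gate held 42 and 12 WT wells and 40 and 14 KO wells in preparations 1 and 2, and the Endothelial gate 235 and 50 WT wells and 302 and 89 KO wells. The sums ranged from 926398 to 94881185 counts, and the median count per well from 46891 to 252839. Amotl2 read 59.9 and 94.0 CPM (the gene's counts scaled to a common library size) in the WT Endothelial sums and 51.9 and 45.7 CPM in the KO sums, a log2 fold change of -0.64 (SE 0.56) that did not pass the test (edgeR adjusted p = 1). Counts per gene do not resolve the deleted part of Amotl2. EYFP had a count in 76.5% and 85.4% of KO Endothelial wells, in 1.70% and 4% of WT Endothelial wells. It had none in the 108 DoubleNegative wells, where a count of 0 allows a share of up to 7.14% and 25% in the WT sums and 7.5% and 21.4% in the KO sums. The 10 endothelial markers (Cdh5, Pecam1 and others) summed to between 13057 and 14684 CPM in the Endothelial sums and to between 45.4 and 1330 CPM in the DoubleNegative sums.

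Wells were clustered without the 10 genes, and the clusters were named from markers that hold none of them. Of 108 DoubleNegative wells, 70 were smooth muscle-like, 37 fibroblast-like and 1 endothelial-like. The smooth muscle-like cluster held 11 of its 12 markers in over 25% of its wells, and the exception Pln, a regulator of the calcium pump, was at 0 in 3 of the 4 DoubleNegative sums. The makeup of the gate differed between sums. WT preparation 1 held 16 smooth muscle-like and 26 fibroblast-like wells. The other 3 sums held 10 and 1 (WT preparation 2), 31 and 9 (KO preparation 1) and 13 and 1 (KO preparation 2).

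In the genome (GRCm38, GENCODE M21) Acta2, the smooth muscle alpha-actin, lies on the minus strand at chr19:34241090-34255590. Myh11, the smooth muscle myosin heavy chain, lies at chr16:14194535-14291372 on the minus strand, and Myl9, a myosin regulatory light chain, at chr2:156775420-156781658 on the plus strand. The actin-binding calponin Cnn1 (chr9:22099216-22109630, plus), the transgelin Tagln (chr9:45929619-45936058, minus) and the tropomyosin Tpm2 (chr4:43514711-43523765, minus) belong to the thin filament. Smtn (smoothelin, chr11:3517523-3540612, minus) binds actin, Lmod1 (leiomodin, chr1:135324807-135368065, plus) nucleates it, Des (chr1:75360329-75368579, plus) is the intermediate filament desmin, and Flna (chrX:74223461-74249820, minus) is filamin A, an actin crosslinker that is also made outside muscle. By whole gene span, Tagln overlaps Pcsk7 and Des overlaps Gm15179, both on the opposite strand and both in the table. Whether strand was used in counting was not given in the sources used here, so how reads in the shared stretches were assigned is not known.

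The 250 bases before the RefSeq transcript start (GRCm38.p6) were searched for the CArG box on both strands in the 8 members that the promoter table holds. Myh11 and Tagln were not in that table. A box with 6 A or T bases at its centre was in 1 of the 8 windows (Myl9) and in 1.48% of 32536 distinct windows of all genes. A box with up to 1 other base at the centre was in 2 of the 8 (Acta2 and Myl9, 2 boxes each) and in 8.59% of all windows. The stretches around these boxes are shown because they are the letters of the regulatory element that these genes are known for, with the boxes in capitals. The 2 stretches of Acta2, at chr19:34255438-34255467 and chr19:34255388-34255417 on the minus strand, begin their boxes 84 and 34 bases before the RefSeq start and lie inside the first exon of the longer GENCODE transcript. The Myl9 stretch, chr2:156775214-156775419 on the plus strand, ends where the GENCODE gene begins, and its boxes start 161 and 99 bases before the RefSeq start.
Acta2, first: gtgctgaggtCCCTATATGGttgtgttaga
Acta2, second: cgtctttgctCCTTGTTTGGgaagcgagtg
Myl9: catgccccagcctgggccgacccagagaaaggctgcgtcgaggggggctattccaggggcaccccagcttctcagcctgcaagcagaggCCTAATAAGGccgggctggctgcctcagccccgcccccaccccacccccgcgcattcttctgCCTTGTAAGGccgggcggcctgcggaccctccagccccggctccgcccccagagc
Of these, only the first Myl9 box has A or T at all 6 central positions, and a match of letters does not show that a factor binds there.

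The first comparison asked how the genes differ between the gates. All 10 genes were higher in DoubleNegative than in Endothelial wells and passed the test (edgeR quasi-likelihood, adjusted p from 0.000186 to 0.00264), against a background of 9.25% of 12729 genes that were higher, 9.79% that were lower and 19% called in either direction. In each of the 10, every DoubleNegative sum lay above every Endothelial sum, which held for 8.98% of all genes tested. The median log2 fold change was 5.98 for the set and -0.15 for all genes.

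Acta2 had the highest CPM of the 10 genes in all 8 sums. It read 12306 and 29751 CPM in the WT DoubleNegative sums and 25889 and 28205 CPM in the KO sums. In the Endothelial sums it read 801 and 541 CPM (WT) and 993 and 505 CPM (KO). The lowest DoubleNegative sum, WT preparation 1 with its 26 fibroblast-like wells, was still far above all Endothelial sums, and the log2 fold change was 5.19 (SE 0.42, adjusted p = 0.000186).
Myh11 read 1760 and 5305 CPM (WT) and 3891 and 5398 CPM (KO) in the DoubleNegative sums. In the Endothelial sums it read 55.5 and 6.00 CPM (WT) and 120 and 46.6 CPM (KO), so these 4 spread over a much wider range than those of Acta2. Its log2 fold change was 6.44 (SE 0.81, adjusted p = 0.00102). Myl9 averaged 5838 ± 1839 CPM (SD, n = 4) in the DoubleNegative sums and 106 ± 69.6 CPM in the Endothelial sums, a log2 fold change of 5.97 (SE 0.60).

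Among the thin filament genes, Tagln averaged 4778 ± 2181 CPM (SD, n = 4) against 152 ± 33.0 CPM, Cnn1 2206 ± 806 against 32.2 ± 30.9 CPM and Tpm2 2371 ± 1035 against 39.5 ± 23.7 CPM in the DoubleNegative and Endothelial sums. Their log2 fold changes were 5.11 (SE 0.44), 6.35 (SE 0.75) and 6.21 (SE 0.53). Lmod1 averaged 534 ± 211 against 9.32 ± 7.75 CPM, a log2 fold change of 5.98 (SE 0.74).
The smallest differences were those of Smtn and Flna. Flna averaged 4253 ± 1340 CPM (SD, n = 4) in DoubleNegative and 276 ± 76.1 CPM in Endothelial sums, a log2 fold change of 4.06 (SE 0.36). Smtn averaged 667 ± 238 and 44.7 ± 22 CPM, a log2 fold change of 4.03 (SE 0.44). Des had the largest fitted value, 6.82 (SE 1.04, adjusted p = 0.00264), and also the widest spread. It read 86.8 and 23.3 CPM (WT) and 229 and 621 CPM (KO) in the DoubleNegative sums and at most 3.69 CPM in the Endothelial sums, with 0 counts in WT preparation 2.

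**Figure D1:**
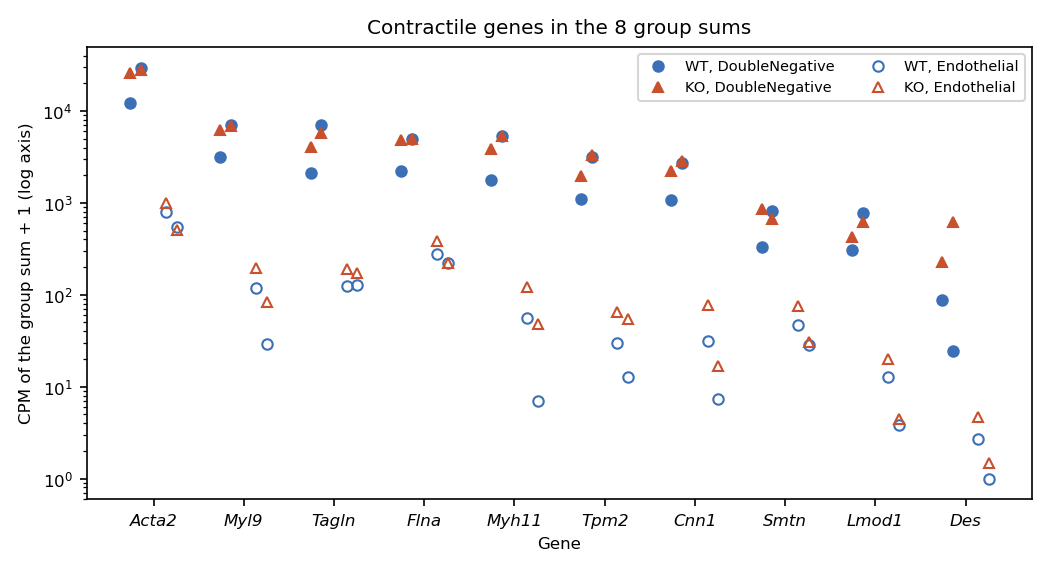
CPM plus 1 of each gene in the 8 sums of wells on a log axis, with WT as blue circles and KO as red triangles, filled for the DoubleNegative and open for the Endothelial gate, and preparation 1 to the left of preparation 2 within each gate. For every gene the 4 filled points lie above the 4 open ones, and the lowest filled point is WT preparation 1 except in Des, where it is WT preparation 2.

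The fold between the gates depended on which Endothelial wells were taken. Within the Endothelial gate, 660 of 676 wells were endothelial-like, 14 smooth muscle-like and 2 fibroblast-like. With only the endothelial-like wells (an alternative chosen after the data were seen), the Myh11 difference was 11.19 on the log2 scale, that of Cnn1 10.06, that of Tpm2 9.24 and that of Myl9 8.45, while those of Flna and Smtn were both 4.42 and that of Acta2 was 6.22. All 10 genes passed the test there too, but leaving out the smooth muscle-like wells favours larger folds by construction, so this pass adds no support. Fitted folds of genes with counts near 0 in one gate also depend on the prior count. Sums of wells mix the number of cells of a type with the RNA per cell, and fewer cells of a type and less RNA per cell cannot be told apart in them.

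The other genes of the apparatus, from a list of 25, moved the same way in most cases: 20 were higher in the DoubleNegative wells, 2 lower and 3 did not pass, and the list's median was 2.75 on the log2 scale. Actg2, the smooth muscle gamma-actin, averaged 359 ± 196 against 3.7 ± 3.10 CPM (SD, n = 4), a log2 fold change of 7.14 (SE 0.45, adjusted p = 0.000139). Cnn2, a calponin of wider expression, differed by 2.99 (SE 0.26), Hspb6, a small heat shock protein of muscle, by 4.81 (SE 0.44) and Ppp1r14a, an inhibitor of myosin phosphatase, by 4.53 (SE 0.44). The 2 lower genes, named after their values were seen, were Smtnl2 (-5.18, SE 0.78), which is related to smoothelin, and the tropomyosin Tpm4 (-1.39, SE 0.39).

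Of 10 genes of the calcium and membrane machinery, 7 were higher, 1 lower and 2 did not pass, and the list's median was 4.86. The integrin subunit Itga8 averaged 3619 ± 2123 CPM (SD, n = 4) in DoubleNegative and 40.0 ± 19.7 CPM in Endothelial sums. Its log2 fold change was 6.65 (SE 0.72). Npnt, the matrix protein nephronectin that binds it, differed by 4.33 (SE 0.48), the L-type calcium channel subunit Cacna1c by 6.15 (SE 0.69) and the calcium pump Atp2a2 by 2.17 (SE 0.26). The lower gene, named after its values were seen, was Cav1, the main protein of caveolae, which averaged 1752 ± 732 against 5048 ± 792 CPM.

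Among the regulators, 14 of 16 listed symbols were in the table, the 2 others being second names of genes that were. Of these, 4 were higher, 2 lower and 8 did not pass. Myocd (myocardin) averaged 276 ± 92.4 CPM in DoubleNegative and 6.11 ± 5.98 CPM in Endothelial sums (SD, n = 4), a log2 fold change of 6.15 (SE 0.47, adjusted p = 0.000154). Rock1, a kinase that restrains myosin phosphatase, differed by 2.41 (SE 0.33). The lower genes were Mkl2, a myocardin-related coactivator of Srf, at -3.05 (SE 0.52), and the Notch ligand Jag1 at -2.68 (SE 0.47).

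Of 13 related genes, most of them non-muscle counterparts, 11 could be tested, of which 4 were higher, 4 lower and 3 did not pass (median 0.00). Flnc, a filamin of muscle that the list also held, differed by 4.51 (SE 0.55). The non-muscle myosin heavy chains split, with Myh10 at 2.62 (SE 0.34) and Myh9 at -1.96 (SE 0.26).

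Within the smooth muscle-like wells of the DoubleNegative gate, 9 of the 10 genes had a count in all 70 wells. Des had one in 21 of the 70 (30.0%). Per kilobase of merged exons, the mean over the 4 sums ran from 14924 ± 290 CPM for Acta2 through 6878 ± 218 for Myl9, 3184 ± 566 for Tagln, 1089 ± 64.2 for Cnn1, 1085 ± 182 for Tpm2, 714 ± 86.7 for Myh11 and 610 ± 38.9 for Flna to 202 ± 34.0 for Smtn, 183 ± 33.1 for Lmod1 and 83.8 ± 76.0 CPM for Des (SD, n = 4). For the neighbours Cnn1 and Tpm2, Myh11 and Flna, Smtn and Lmod1, and Lmod1 and Des the ranges of mean ± SD overlapped. From well to well, Acta2 varied least, between 15486 and 54273 CPM with a median of 34643 and a coefficient of variation of 23.6%, followed by Myl9 at 26.1%. Lmod1 varied by 69.2% and Des by 275%. Des was thus the exception in these cells. A single well held 34.1% of its 3309 counts, and 5 wells held 77.5%. The genes that varied least, Acta2 and Myl9, were the highest in level, and those that varied most, Lmod1 and Des, the lowest. The part of counting error in this order was not tested.

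The genes rose and fell together over the 108 DoubleNegative wells mainly as these divide into smooth muscle-like and fibroblast-like. Each member but Des correlated with the mean of the other 9 by Pearson's r of 0.85 to 0.99 on the log2(CPM + 1) scale, and Des by 0.32. Within the 70 smooth muscle-like wells the same r ran from 0.05 (Des) to 0.47 (Tagln). The 10 other genes most like the mean of the set, out of 7282 compared, were Npnt (r = 0.98), Susd5, Itga8, Mylk, Cspg4, Mcam, Kcnmb1, Synpo2, Myl6 and Gucy1a3 (r = 0.92). Within the smooth muscle-like wells their r lay between -0.31 and 0.35. Wells of a sum share plate and preparation, and depth differs between wells, so these values are a description only.

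In the 37 fibroblast-like DoubleNegative wells the set was low. Pooled over these wells, Acta2 read 125 CPM against 33251 CPM in the smooth muscle-like wells, and Myh11 11.4 against 5115 CPM. The smallest ratios between these pools were those of Smtn (16.4-fold, 60.3 CPM in fibroblast-like wells), Flna (29.1-fold, 207 CPM) and Lmod1 (31.1-fold, 20.5 CPM). A count was found in 43.2% of the fibroblast-like wells for Acta2, in 91.9% for Flna and in 56.8% for Smtn. Within preparation 1, Acta2 had a count in 88.9% of 9 KO wells (275 CPM) and in 30.8% of 26 WT wells (50.8 CPM). After thinning to a common depth these shares were 55.6% and 15.4%. Without thinning, the share was higher in KO for each of the other genes, as for Myh11 (55.6% against 3.85%) and Cnn1 (44.4% against 0%). After thinning, the share of Flna was lower in KO (66.7% against 73.1%) and that of Smtn nearly level (55.6% against 50%). The rest stayed higher in KO, with Myh11 at 11.1% against 0% and Cnn1 at 22.2% against 0%. These values carry no test, and plate and genotype cannot be told apart in preparation 1. The median depth of its DoubleNegative wells was 218324.5 counts in KO and 112299 in WT.

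The second comparison asked whether the genes of the Cd31-Cd45- cells differ with the endothelial deletion. In the whole DoubleNegative gate no member passed the test between KO and WT, and the background was 0% of 12729 genes called. Before adjustment 1130 genes had p under 0.05, among them 1 member (Des), and DESeq2 called 189 genes, none of them a member. The median log2 fold change was 0.42 for the set and 0.00 for all genes. Des differed by 2.96 (SE 1.23, unadjusted p = 0.0398, adjusted p = 0.541), and only in Des were both KO sums above both WT sums, as in 12.3% of all genes. Acta2 differed by 0.40 (SE 0.50) and Myh11 by 0.44 (SE 0.91). Without WT preparation 1, the sum with 26 fibroblast-like wells, these 2 values were -0.10 and -0.15. The fibroblast markers summed to 30878 CPM in that sum and to between 2382 and 11782 CPM in the other 3, while the 12 smooth muscle markers summed to 5630 CPM there and to between 11107 and 17293 CPM elsewhere. All 10 fibroblast markers were detected in 3 of the sums and 9 in WT preparation 2, where Clec3b was at 0.

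Taking only the smooth muscle-like wells removed most of this spread. Acta2 then read 32873 and 32526 CPM in WT and 33600 and 32096 CPM in KO, so that the 4 sums lay within a range of a few percent and the genotypes overlapped. Its log2 fold change was 0.04 (SE 0.21), with a 95% interval from -0.37 to 0.45. Myh11 read 4713 and 5801 CPM in WT and 5052 and 6143 CPM in KO, a log2 fold change of 0.13 (SE 0.28, interval -0.41 to 0.67). Changes of these genes within the intervals were not detectable with 2 preparations per genotype. The intervals are normal ones, narrower than the test's few degrees of freedom would give, so somewhat larger changes could also be missed.
The 9 members other than Des had fitted values between -0.34 and 0.14, and 0 of 10 passed the test (edgeR), as did 0% of 8985 genes. Before adjustment 309 genes had p under 0.05, 1 of them a member (Des), and DESeq2 called 11, none of them a member. Lmod1 read 781 and 859 CPM in WT and 553 and 703 CPM in KO. Both KO sums were lower, which held for 16.1% of all genes, and the log2 fold change was -0.34 (SE 0.34). Myh11, with the values given above, Tagln and Tpm2 followed the preparation more than the genotype. Tagln read 5619 (WT) and 5279 CPM (KO) in preparation 1 and 7778 and 6641 CPM in preparation 2, and Tpm2 read 2909 and 2557 CPM in preparation 1 and 3413 and 3749 CPM in preparation 2.

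Des gave the largest difference. It read 233 and 25.5 CPM in the WT and 294 and 706 CPM in the KO smooth muscle-like sums. Both KO sums were above both WT sums, as in 15.5% of all genes tested. The log2 fold change was 2.0 (SE 0.76, unadjusted p = 0.0224, adjusted p = 1.00). It passed when low genes were not filtered (adjusted p = 0.0286) and when WT preparation 1 was left out (4.34, adjusted p = 2.98e-06). In the latter case WT was 1 sum of 10 wells with 23 Des counts, the spread came from the 2 KO sums alone, and the lone WT sum was assumed to vary like them. The share of wells with a Des count was 25% and 50% in WT and 22.6% and 38.5% in KO, so the genotypes overlapped in this measure. In KO preparation 1 a single well held 52.9% of 2135 Des counts, and in KO preparation 2 a single well held 64.5% of 575.

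**Figure D2:**
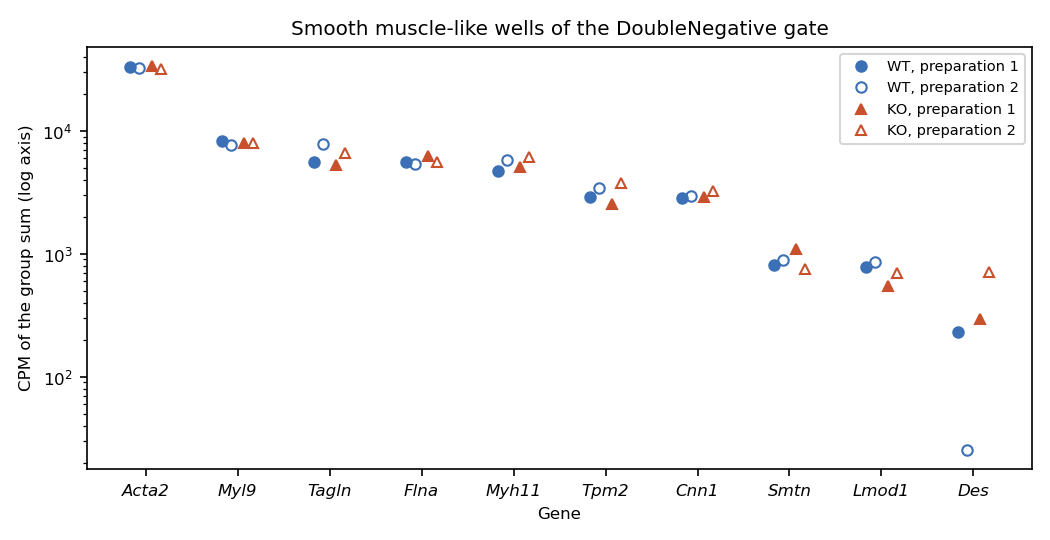
CPM of each gene in the 4 sums of smooth muscle-like DoubleNegative wells on a log axis, with WT as blue circles and KO as red triangles, filled for preparation 1 and open for preparation 2. The points of Acta2 lie between 32096 and 33600 CPM, and those of Des between 25.5 and 706 CPM.

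The lists showed no called gene in this comparison either. Of the other contractile genes 0 of 24 tested passed, of the calcium and membrane genes 0 of 9, of the regulators 0 of 12 and of the related, mostly non-muscle genes 0 of 11, with medians of -0.05, -0.08, 0.06 and -0.18 on the log2 scale against 0.01 for all genes.

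The third comparison asked the same of the Endothelial wells. No member passed the test, and 0% of 12729 genes did (edgeR), with 191 genes at an unadjusted p under 0.05, 1 of them a member (Tpm2), and 29 called by DESeq2, none of them a member. EYFP, the reporter of recombination, differed by 6.10 (SE 1.06) and did not pass either, so even a difference of this size went uncalled. All 10 fitted values were above 0, with a median of 0.75 for the set and 0.01 for all genes. Tpm2 read 28.9 and 11.6 CPM in WT and 64.4 and 52.9 CPM in KO, a log2 fold change of 1.52 (SE 0.61, unadjusted p = 0.0349, adjusted p = 1). In Tagln and Tpm2 both KO sums were above both WT sums, as in 14.6% of all genes. Myh11 differed by 1.40 (SE 0.93) and Acta2 by 0.15 (SE 0.50). With only the endothelial-like wells of this gate Acta2 was at -0.64 (SE 0.49). In these wells the sums of the genotypes overlapped in both Tagln and Tpm2. Tagln read 61.13 and 107.73 CPM in WT and 78.80 and 79.36 CPM in KO. Tpm2 read 0.762 and 4.51 CPM in WT and 14.05 and 0.597 CPM in KO. The KO effect did not differ between the gates beyond its error in any member (interaction, adjusted p = 1.00), and the fitted differences ran from -1.15 for Tpm2 to 1.81 for Des. At an unadjusted p under 0.05 the interaction held 657 genes and no member, and DESeq2 called 46 genes, none of them a member.

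**Figure D3:**
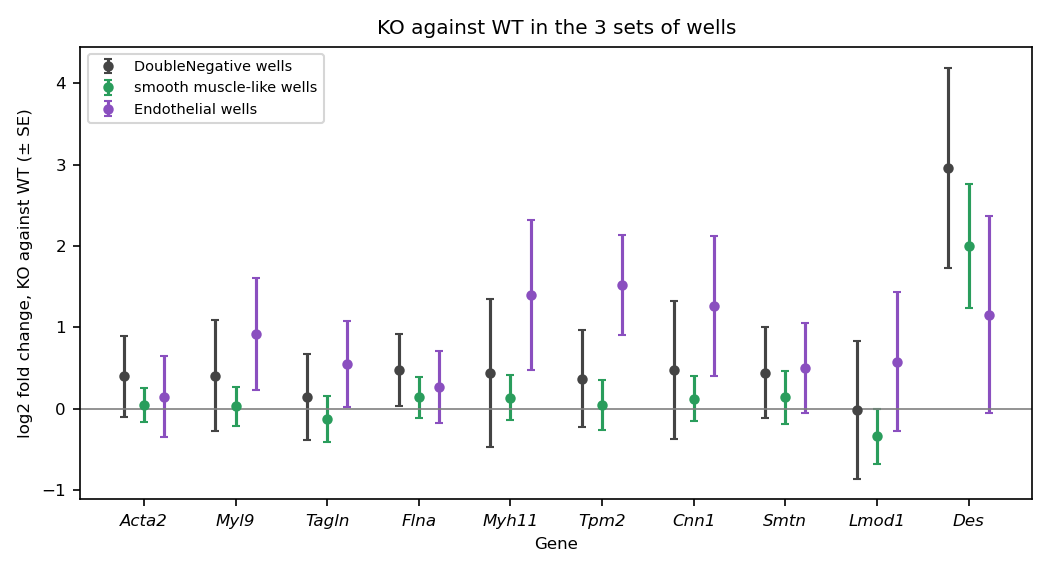
Fitted log2 fold change of KO against WT with its SE for each gene in DoubleNegative wells (black), smooth muscle-like wells (green) and Endothelial wells (purple), from 2 sums per genotype. The green values of all genes but Des lie between -0.34 and 0.14, and no value passed the test.

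The last question was whether Cd31+Cd45- wells with a count of Cdh5, which encodes VE-cadherin and is a defining gene of endothelium, also carry contractile genes. There were 639 such wells. Of these, 50 had no member, 201 had 1, 179 had 2, 89 had 3, 68 had 4, 26 had 5, 9 had 6, 2 had 7, 6 had 8, 7 had 9 and 2 had 10. The 15 wells with 8 or more members, a bound chosen after the distribution was seen, were 2.35% of the wells (95% exact interval 1.32% to 3.84%). Since the bound selects wells with counts of the rarer members, what these wells hold of the 10 genes is a description of the choice. Of the Acta2 counts in Endothelial wells with a Cdh5 count they held 65.0%, of Tagln 60.9%, of Flna 30.4% and of Smtn 22.5%. The 11 wells with 6 or 7 members lie just under the bound, and 6 wells had exactly 8.

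By sum, the 15 wells were 3 of 215 (1.40%) and 1 of 48 (2.08%) in WT and 9 of 287 (3.14%) and 2 of 89 (2.25%) in KO. The exact intervals overlap for all 4, from 0.29% to 4.02% in WT preparation 1 and from 1.44% to 5.87% in KO preparation 1. These wells combined both sets of markers. A median of 9 of the 12 smooth muscle markers had a count in them against 3 in the other 624, and 8 of the 10 endothelial markers had one in both. Their median was 5302 detected genes against 3814 and 345013 counts against 163180. In the 15 wells Cdh5 had a median of 105 CPM against 196 CPM in the other 624, and Pecam1 4809 against 8098 CPM. The Cdh5 counts of the 15 wells ran from 1 to 286. EYFP had a count in 10 of the 11 KO wells (exact interval 58.7% to 99.8%) and in 79.5% of 365 other KO wells with a Cdh5 count. In the clustering without the 10 genes 8 of them were smooth muscle-like and 7 endothelial-like. Whether more than 1 cell was in these wells was not tested, and no doublet caller was run.

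The proportions of the genes to Acta2 were compared in wells that had not been chosen by the number of members, which was decided after the data were seen. Per 100 Acta2 counts the 70 smooth muscle-like wells held 15.4 Myh11, 17 Tagln, 8.76 Cnn1, 24.2 Myl9 and 8.38 Tpm2 counts. All 639 Endothelial wells with a Cdh5 count, smooth muscle-like ones included, held 9.83 Myh11, 19.9 Tagln, 6.07 Cnn1, 16.3 Myl9 and 5.43 Tpm2 counts. The 660 Endothelial wells that were endothelial-like held 2.03 Myh11, 20.5 Tagln, 1.39 Cnn1, 8.08 Myl9 and 2.45 Tpm2 counts. The 10 genes did not enter that clustering, but other smooth muscle genes did. Among the 660 were 7 of the 15 wells with 8 or more members, and all 660 held 1144 Myh11 and 783 Cnn1 counts. The 624 wells with a Cdh5 count and under 8 members, a bound that these genes enter, held 83 and 8. By sum, Tagln ranged from 16 to 40.7 per 100 Acta2 counts in the endothelial-like wells and from 15.7 to 23.9 in the smooth muscle-like wells, so the ranges overlapped. Myh11 ranged from 0 to 3.27 and from 14.3 to 19.1, and the highest of the endothelial-like sums was KO preparation 1, with at most 0.146 in the other 3. Smtn, at 12.9 against 2.98, and Flna, at 63.9 against 18.1, were higher relative to Acta2 in the endothelial-like wells.

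**Figure D4:**
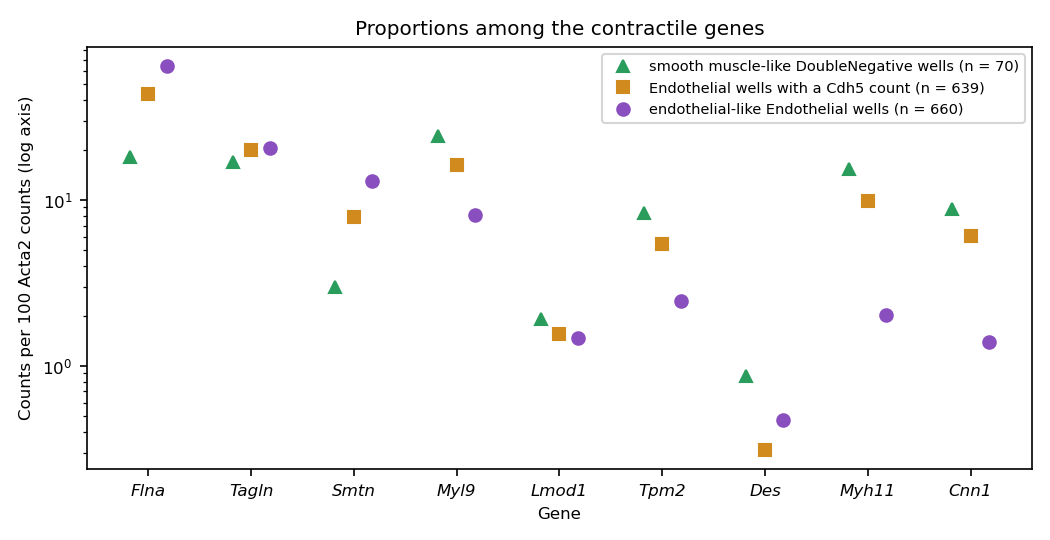
Counts of 9 genes per 100 Acta2 counts on a log axis in the 70 smooth muscle-like wells (green triangles), the 639 Endothelial wells with a Cdh5 count (orange squares) and the 660 endothelial-like wells of the Endothelial gate (purple circles, most of them also among the 639), each pooled over wells. The 3 points of Tagln lie between 17 and 20.5, while purple points lie below green ones in Myh11 (2.03 against 15.4) and Cnn1 (1.39 against 8.76) and above them in Flna and Smtn.

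Over all 676 Endothelial wells Flna had a count in 83.4%, Smtn in 41.1%, Acta2 in 32.5%, Tagln in 30.8%, Myl9 in 12%, Lmod1 in 8.43%, Tpm2 in 5.77%, Myh11 in 5.33%, Cnn1 in 4.29% and Des in 0.888%. Acta2 was found in 26.0% and 44% of the WT and in 34.1% and 38.2% of the KO wells of preparations 1 and 2, so the genotypes overlapped. After each well was thinned to 20000 counts its share over all wells was 26.2%. For comparison, the fibroblast gene Dcn had a count in 20.9% and 32% of the WT and in 21.9% and 23.6% of the KO Endothelial wells. Pecam1 had one in 7.69% to 20% of the wells in the smooth muscle-like sums, whose median depth was 112506 counts against 159625 in the Endothelial gate. The part of reads from other cells in these shares was not tested.

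Acta2 without Myh11 was also found in wells with many Acta2 counts. Among all 639 wells, 87 had at least 100 Acta2 counts, a bound chosen after the data were seen. Of these 87, 66 had a Tagln count, 62 a Smtn count and 40 a Myl9 count, while 74 had no Myh11 count and 71 no Cnn1 count. In the 629 wells that were endothelial-like by clustering, 79 reached this bound, of which 58 had a Tagln count and 5 a Myh11 count. They came from all 4 sums (20, 7, 44 and 8 wells). All 70 smooth muscle-like wells had counts of each of these genes. Of the 624 wells under 8 members, a bound that both genes enter, 191 had Acta2, and 57.1% of them also had Tagln, against 17.1% of the 433 without Acta2. This order held in each sum, with 46.2% against 14.4% and 80.0% against 25.9% in WT and 55.2% against 17.3% and 65.6% against 20% in KO. Deeper wells show more genes of any kind, and the part of depth in this was not tested.

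**Figure D5:**
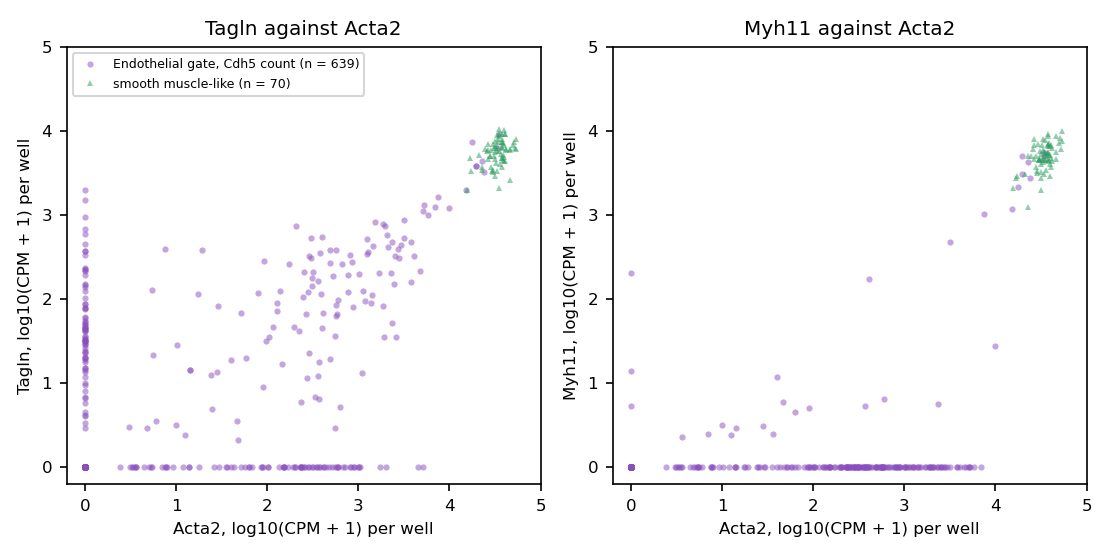
Tagln (left) and Myh11 (right) against Acta2 in single wells as log10(CPM + 1), for 639 Endothelial wells with a Cdh5 count (purple circles) and 70 smooth muscle-like wells (green triangles). Many purple wells rise along the Tagln axis with Acta2, while on the right most of those with Acta2 lie at 0 for Myh11 and only a few reach the green group.

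The endothelial-like clusters did not share Acta2 evenly. In the 3 largest, of 247, 201 and 156 Endothelial wells, Acta2 had a count in 40.1%, 31.3% and 24.4% of wells, or in 31.6%, 25.9% and 19.2% after thinning. In the cluster of 33 wells led by Htr2b, Ackr1 and Lrg1 it had a count in 9.09% (3.28 CPM) and Tagln in 27.3% (64.4 CPM). Of the cluster of 156 wells, 155 came from WT preparation 1, so that cluster and sum cannot be told apart. In the smallest cluster, of 23 wells led by Ssu2, Hapln1 and Tmem178, Acta2, Tagln, Myh11 and Myl9 had a count in 13% of wells each and Tpm2 in 17.4% (51.9 CPM). Its shares of Myh11 and Tpm2 were above those of the other 4 clusters, which ran from 0.641% to 4.05% and from 0 to 4.86%. These values describe the clusters, with no test.

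Wells under the filter were looked at apart. In the Endothelial gate Acta2 had a count in 19.8% of 101 and 17.6% of 34 WT wells and in 5.88% of 34 and 1.96% of 51 KO wells, with medians of 272 to 6563 counts per well. Myh11 had a count in 1 well of each WT sum and in none of the KO wells.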

How the data were processed

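Single cells of mouse aorta were sequenced with Smart-seq2. Per the labels and the study's methods the authors used STAR 2.7.7a for alignment to GRCm38 (plus EYFP and spike-ins), Picard 2.22.0 for duplicate removal and HTSeq 0.9.1 for counting. The deposited values are raw counts per gene and well. The annotation release and strand setting were not given in the sources used here. Of the counts, 51.9% were on genes, 1.25% on spike-ins and 46.9% on summary lines (unassigned or ambiguous reads), and only genes were used.

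The depth filter for wells was 20000 gene counts and 500 genes. No wells were identical. Depth ranges stand with the samples, and deeper sums carry less counting error. Counts were summed per genotype, gate and preparation and tested with edgeR 4.0.16 (glmQLFit, glmQLFTest, TMM, filterByExpr, Benjamini-Hochberg over all genes tested, threshold 0.05, tested on simulated data) in R 4.3.3, with 4 groups of 2 sums and, for smooth muscle-like wells, 2 groups of 2. Nothing in the labels shows that preparations were separate animals beyond their pools, so p-values measure the spread between preparations. Intervals of fold changes are 95% normal intervals from the SE and are narrower than the test's few degrees of freedom would give. Those of shares are exact (Clopper-Pearson, 95%), for counting error only. Clusters came from Seurat 5.3.0 (2000 variable genes, 30 dimensions, resolution 0.5, the 10 genes left out). Coordinates came from GENCODE M21, in which 95.7% of the symbols were found, and promoter sequences from RefSeq (GRCm38.p6). Other values used numpy 2.4.6, pandas 2.3.3 and scipy 1.17.1.

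The design text names separate preparations, so the number pairs the samples. Deviations of sums of the same preparation and gate correlated by 0.09 (DoubleNegative) and 0.12 (Endothelial), and those of the same suspension by 0.07 in each genotype. Alternatives were RLE factors, no filter, DESeq2 1.42.0, the replicate block, each preparation left out, wells with at least 100000 counts, wells chosen by Cdh5, thinned wells, sums of one gate, another resolution of 0.8 and smooth muscle-like wells of both gates. Endothelial wells in endothelial-like clusters were an alternative added after the data were seen. The members and lists were chosen with earlier results of these data known. Named are the 10 members, Amotl2, EYFP and Cdh5, up to 4 genes per list by smallest adjusted p and the 10 genes most correlated with the set, and others are said to be chosen later. 1 item that this rule would name is not reported here.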

Additional observations from a re-analysis of the deposited data

Results flagged for a closer look

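Of 30 groups of 4 sums examined (10 genes in the DoubleNegative, Endothelial and smooth muscle-like sums), 1 held a sum far from the others. Flna in the DoubleNegative sum of WT preparation 1 read 2245 CPM, while the other 3 lay between 4854 and 4968 CPM, so its gap was 0.958 of the range, above Dixon's critical value. Chance flags about 1 in 20 such groups. That sum held 26 fibroblast-like of 42 wells, and in the smooth muscle-like wells alone it read 5629 CPM, within the range of the other 3 (5427 to 6263 CPM).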

How the results depend on the processing

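All 10 genes passed the test between the gates under all 12 alternatives. These include the Endothelial wells in endothelial-like clusters, chosen after the data were seen, whose pass adds no support. No member passed between KO and WT in Endothelial wells or in the interaction under any alternative. The number of all genes called between the gates ran from 1004 to 1885 when a preparation was left out. With the replicate block (paired preparations) 1964 genes were called between the gates, the Acta2 value was 5.18, and no other call changed. Without a filter on low counts 1 member (Des, 2.95) and 218 genes passed between KO and WT in DoubleNegative wells, 100 genes in Endothelial wells, 163 in the interaction and 1 (Des, 1.99) in smooth muscle-like wells. DESeq2 called 189, 29, 46 and 11 genes in these comparisons, none of them a member, and thinning gave 1 gene in Endothelial wells. When each preparation was left out the counts ran from 0 to 34 in DoubleNegative wells (34 without WT preparation 1), from 0 to 21 in the interaction (21 without WT preparation 1) and from 0 to 13 in smooth muscle-like wells, where 0 to 1 members passed (Des, 4.34, without WT preparation 1).

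Values near 0 changed sign. Acta2 was at -0.10 and Myh11 at -0.15 in DoubleNegative wells without WT preparation 1, with ranges over the preparations left out of -0.10 to 1.17 and -0.15 to 1.44. In Endothelial wells Acta2 ranged from -0.31 to 0.49, with -0.13 without WT preparation 2 and -0.31 without KO preparation 1, and was at -0.10 in wells with at least 100000 counts and at -0.64 in endothelial-like wells. In smooth muscle-like wells Acta2 was at -0.083 in wells with at least 100000 counts, and Myh11 ranged from -0.050 to 0.33, with -0.019 without WT preparation 1 and -0.050 without KO preparation 2. None of these passed the test. The causes were not tested.

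The share of Endothelial wells with an Acta2 count was 26.2% thinned, 37.5% in wells with at least 100000 counts and 27.8% at 3 or more counts, and depth thus limits it. Wells with 8 or more members were 1.11% of those with Cdh5 that were endothelial-like, and 1.92% of those with at least 10 Cdh5 counts. Leaving out a preparation leaves an arm with 1 sum, which is assumed to vary like the others. With 2 sums per group, small differences could not be resolved.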
